A study of Mus musculus with 30 samples.

Results

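The MYC, MAX and MXD network is a small set of DNA-binding proteins of the basic helix-loop-helix leucine zipper type that share the partner MAX. The genes described are Myc, Mycn, Mycl, Max, Mxd1, Mxd3, Mxd4, Mxi1, Mnt and Mga. They were chosen by name, as the rows of the deposited count table whose Ensembl identifier, without its version, maps to 1 of these 10 mouse symbols. All 10 were found among 57186 gene identifiers. RNA was sequenced from NIH/3T3, a mouse fibroblast line grown in serum, and from CGR8, a mouse embryonic stem cell line kept in N2B27 with LIF and 2i. Both lines carry the genotype given as ROSA26 SLT knock-in, so that no group lacks it. Cells received 0.1 µg/mL cycloheximide (CHX), an inhibitor of translation elongation, and were sampled at 0, 1, 2, 5 and 48 h, with 3 replicates per line and time and 30 libraries in all. The 0 h libraries are the control of each line, and the series asks how the transcriptome responds early to reduced protein synthesis.

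MYC, MYCN and MYCL bind DNA as dimers with MAX, typically at the E-box CACGTG, and raise transcription of genes for ribosome assembly, nucleotide and polyamine synthesis and growth. MXD1, MXD3, MXD4, MXI1 and MNT compete for MAX and bring in SIN3 and histone deacetylases, which lower transcription at the same sites. MGA also pairs with MAX and is the scaffold of a Polycomb complex, PRC1.6, that keeps germline genes silent in embryonic stem cells. MYC protein and Myc mRNA are both short-lived, which makes the network a common subject of studies with translation inhibitors.

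RefSeq start-site windows of 300 bases (most of them before the start, GRCm38.p6) were read for 9 of the 10 genes. The letters CACGTG, which read the same on both strands, stood in the windows of 3 of the 9, and of 8.09% of 27025 genes with a window. The related letters CACGCG, searched on both strands as CACGCG or CGCGTG, stood in 2 of the 9 (Mycl and Mga) and in 10.5% of all genes. The 3 windows with an E-box are shown because Mnt and Mxd4 fell in both lines at 5 h and Max is the shared partner. Each is printed 5′ to 3′ on the strand of the gene with the E-box in capitals, in the order Mnt (chr11:74830674-74830973, plus strand), Mxd4 (chr5:34187661-34187960, minus strand) and Max (chr12:76962199-76962498, minus strand).
Mnt: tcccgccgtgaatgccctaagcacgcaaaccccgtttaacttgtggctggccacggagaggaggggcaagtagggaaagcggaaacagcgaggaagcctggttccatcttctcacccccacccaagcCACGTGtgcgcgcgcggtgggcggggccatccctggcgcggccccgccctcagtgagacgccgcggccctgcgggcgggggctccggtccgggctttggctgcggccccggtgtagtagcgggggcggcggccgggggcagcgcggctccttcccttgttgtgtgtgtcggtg
Mxd4: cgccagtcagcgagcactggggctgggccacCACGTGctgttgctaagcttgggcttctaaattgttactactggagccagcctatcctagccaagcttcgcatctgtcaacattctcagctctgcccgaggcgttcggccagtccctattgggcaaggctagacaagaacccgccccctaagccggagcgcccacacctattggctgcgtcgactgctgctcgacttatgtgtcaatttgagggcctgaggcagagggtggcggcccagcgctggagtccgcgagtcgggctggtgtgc
Max: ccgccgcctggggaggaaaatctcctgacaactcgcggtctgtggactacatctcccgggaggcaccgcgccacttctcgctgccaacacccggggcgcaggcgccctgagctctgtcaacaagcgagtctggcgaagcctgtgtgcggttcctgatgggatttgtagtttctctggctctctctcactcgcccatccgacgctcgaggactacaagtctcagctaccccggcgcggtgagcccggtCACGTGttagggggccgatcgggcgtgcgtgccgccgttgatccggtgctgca
The E-box begins at base -123 from the Mnt start, at -219 from the Mxd4 start and at -3 from the Max start. A match is a run of letters only. Mxi1, which fell along with Mnt and Mxd4 at 5 h, had 3 windows and neither motif in any of them.

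Library totals ranged from 18216993 to 30503109 counts (n = 30). The lines matched their labels in the sums of their markers. The summed level of 7 stem cell markers was 4677 to 6704 CPM (counts scaled to a common library size) in CGR8 libraries and 19.5 to 32.3 CPM in NIH/3T3. The summed level of 6 fibroblast markers was 4014 to 10537 CPM in NIH/3T3 and 2.02 to 5.23 CPM in CGR8. Pou5f1 was at 0 in all NIH/3T3 libraries of 0 h, and the fibroblast marker Postn in all CGR8 libraries of 0 h. Single markers were less uniform. At each time 4 of the 6 fibroblast markers and 1 stem cell marker reached 1 CPM in all NIH/3T3 libraries. In CGR8 all 7 stem cell markers and 1 fibroblast marker did. The fibroblast marker Thy1 was at 0 in all NIH/3T3 libraries of 48 h. The library farthest from its replicates was CGR8 2 h replicate A, at a root mean square log2 distance of 0.595 against a median of 0.356. Levels are CPM after scaling by trimmed mean of M values (TMM), so each is a share of a library. A change in total RNA per cell, or in the number of cells of a kind, cannot be told apart from these values. Tests are edgeR quasi-likelihood F tests with Benjamini-Hochberg (BH) adjustment over all genes tested, and a gene is called at an adjusted p under 0.05. Nothing in the labels says that replicates are separate cultures, so p-values measure the spread between these samples, which may be technical.

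Before treatment Myc RNA was present in both lines, while Mycn and Mycl RNA was found almost only in CGR8. In NIH/3T3 at 0 h, Myc stood at 264, 244 and 284 CPM, and in CGR8 at 62.6, 64.5 and 64.2 CPM. Mycn stood at 138, 145 and 133 CPM in CGR8, against 3 counts in the 3 NIH/3T3 libraries together. Mycl stood at 11.8, 12.1 and 12 CPM in CGR8, against 1 count in NIH/3T3. No library of either line overlapped with the other line for any of these genes. The level of Mycn was 3470 times higher in CGR8 by summed counts (95% interval 1190 to 16800) and that of Mycl 901 times (161 to 35600). These intervals are exact and cover counting error only. Over all 15 NIH/3T3 libraries Mycn had 11 counts, with 8 libraries at 0, and Mycl had 2 counts, with 13 libraries at 0, so neither entered the NIH/3T3 tests and no change with time could be measured there.

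Mycn and Mycl passed the filter through CGR8 alone, so their calls are not counted. Of the other 8 genes, 7 were called between the lines at 0 h, where 79.1% of 17549 genes tested were called, so most genes of the table differed. Myc was 4.27-fold lower in CGR8 (log2 difference -2.09, SE 0.12, edgeR BH-adjusted p = 2.18e-15). Mxd4, an antagonist linked to quiescent and differentiating cells, was 22.0-fold lower in CGR8 (1.20 ± 0.24 CPM, SD, n = 3) than in NIH/3T3 (25.9 ± 0.49 CPM). Mxd3, an antagonist known from cells in S phase, was 6.70-fold lower, at 6.11 ± 0.29 against 39.7 ± 2.2 CPM. Mga was 3.88-fold higher in CGR8, at 333 ± 67 against 83.2 ± 18 CPM. Max and Mnt were 1.5-fold and 1.38-fold higher in CGR8, and Mxi1 was 1.74-fold lower. The Mnt difference was no longer called without NIH/3T3 0 h replicate B (log2 0.32, edgeR BH-adjusted p = 0.0644). Mxd1, at 3.44 ± 0.11 and 3.81 ± 0.27 CPM, was the gene not called (log2 difference -0.19, interval -0.53 to 0.14).

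Divided by the length of the longest coding transcript, the levels can be ordered within a line. In NIH/3T3 at 0 h, Myc led at 113 ± 8.48 CPM per kb (SD, n = 3). Mxd3 (29.9 ± 1.66) and Max (27.4 ± 1.35) followed with overlapping libraries, as did Mnt (8.92 ± 1.36) and Mxi1 (8.49 ± 0.352) below them, and then Mxd4 (6.69 ± 0.126) and Mga (5.97 ± 1.27). Mxd1 was at 0.817 ± 0.0586 CPM per kb. In CGR8 the order per kb was Mycn (51.8 ± 2.35), Max (42.4 ± 1.63), Myc (27.3 ± 0.435), Mga (23.9 ± 4.78), Mnt (12.7 ± 0.208), Mxi1 (5.02 ± 0.731), Mxd3 (4.6 ± 0.219), Mycl (3.43 ± 0.0436), Mxd1 (0.737 ± 0.0246) and Mxd4 (0.309 ± 0.0629). There the libraries of Myc and Mga overlapped, and so did those of Mxi1 and Mxd3.

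**Figure D1:**
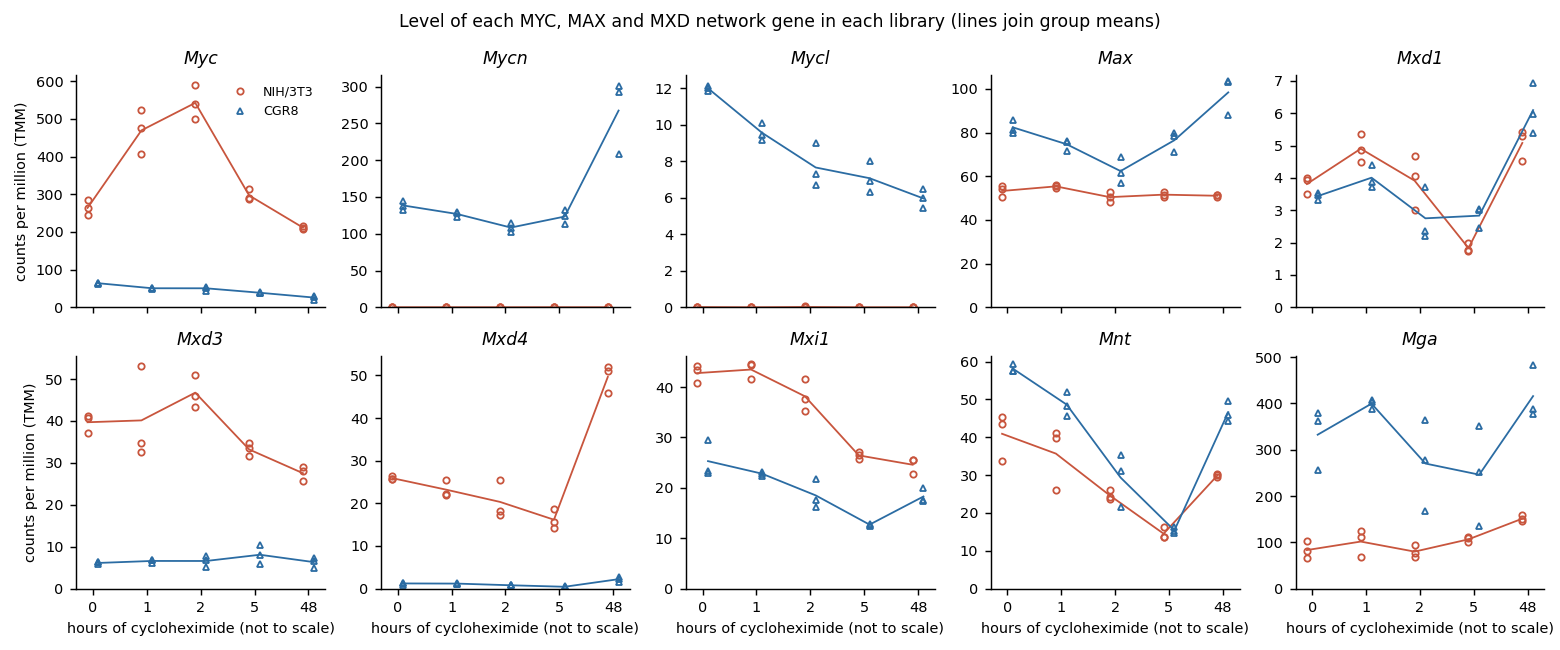
Level of each gene in CPM in each of the 30 libraries by hours of CHX (time points evenly spaced, not to scale), with lines through group means of 3 libraries. Myc in NIH/3T3 rises from 264 to 542 CPM by 2 h and is back at 297 CPM by 5 h, while in CGR8 it falls from 63.8 to 25.8 CPM over 48 h, and Mnt reaches its lowest mean at 5 h in both lines.

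Myc took different courses in the 2 lines. In NIH/3T3 it stood at 477, 524 and 408 CPM at 1 h, and at 589, 499 and 539 CPM at 2 h, all above the 0 h libraries. The rise was 1.78-fold at 1 h (log2 0.83, SE 0.10, edgeR BH-adjusted p = 0.000113) and 2.06-fold at 2 h (log2 1.04, SE 0.10, adjusted p = 1.61e-06). At 1 h Myc was the 1 network gene called of 8 tested, where 0.653% of 13941 genes were called higher and 0.0789% lower. By 5 h the libraries stood at 313, 288 and 289 CPM, still above those of 0 h but not called (log2 0.17, adjusted p = 0.152). From 2 h to 5 h Myc fell by 0.87 on the log2 scale (SE 0.10, edgeR BH-adjusted p = 7.87e-06). At 48 h it stood at 211, 208 and 216 CPM, below every 0 h library (log2 -0.32, adjusted p = 0.0112). The 48 h call was lost without NIH/3T3 0 h replicate C (log2 -0.26, adjusted p = 0.0574) and with library size alone as the scaling (log2 -0.24, adjusted p = 0.0505).

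In CGR8 Myc stood at 49.8, 51.1 and 50.5 CPM at 1 h and at 54.5, 52.4 and 44.2 CPM at 2 h. Both sets lay below all 0 h libraries, but neither difference was called (log2 -0.34 at both times, edgeR BH-adjusted p = 0.537 and 0.0844). At 5 h the libraries held 37.2, 39.8 and 38.6 CPM, and Myc had fallen by 0.73 on the log2 scale (SE 0.14, adjusted p = 0.000375). At 48 h they held 19.1, 30.3 and 28.0 CPM, a fall by 1.31 (SE 0.14, adjusted p = 5.94e-06), which is 2.47-fold.

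This difference in Myc was tested directly as the difference between the lines in the change from 0 h. That difference (CGR8 minus NIH/3T3) was -1.15 at 1 h (SE 0.17, edgeR BH-adjusted p = 0.000362), -1.33 at 2 h (SE 0.17, adjusted p = 4.6e-06), -0.81 at 5 h (SE 0.17, adjusted p = 0.00131) and -1.004 at 48 h (SE 0.17, adjusted p = 5.87e-05). Of the 8 genes other than Mycn and Mycl, Myc was the 1 called at 1 h, where 0.160% of 17549 genes were called, and the 1 called at 2 h, where 2.02% were. At 5 h 3 of 8 were called beside 13.3% of all genes, and at 48 h 1 of 8 beside 21.9%. Single libraries moved these counts: 2 were called at 2 h without CGR8 2 h replicate A, and 1 at 5 h without NIH/3T3 0 h replicate C or 5 h replicate A or C. At 48 h 2 were called without 0 h replicate B of either line and 3 without CGR8 48 h replicate A. The 4 time points share their 0 h libraries and are not separate evidence. Mycn and Mycl passed the filter of this fit through CGR8, and no difference between the lines is read for them.

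**Figure D2:**
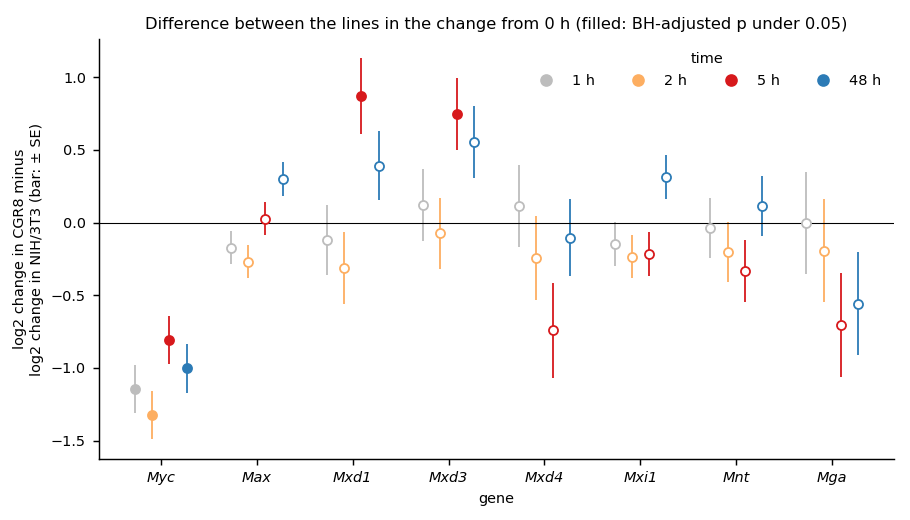
Difference between the lines in the log2 change from 0 h, CGR8 minus NIH/3T3, for 8 genes at 1, 2, 5 and 48 h (points with SE, filled where the BH-adjusted p is under 0.05). Myc lies between -1.33 and -0.81 at all 4 times, while Mxd1 (0.87) and Mxd3 (0.75) are called at 5 h.

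Mycn, the family member best known from embryonic and neural cells, took another course in CGR8 than Myc. It stood at 128, 123 and 130 CPM at 1 h, 108, 114 and 103 CPM at 2 h and 113, 133 and 125 CPM at 5 h. At 48 h it reached 209, 301 and 292 CPM, with every library above every earlier one. The rise at 48 h was 1.93-fold (log2 0.95, SE 0.12, edgeR BH-adjusted p = 3.13e-05), and from 5 h to 48 h it was 2.17-fold. The summed stem cell markers held 4677 to 4856 CPM at 0 h, 6155 to 6704 CPM at 5 h and 5216 to 5753 CPM at 48 h. Their 48 h sums lay below all those of 5 h, while Mycn rose between these times. The summed markers of differentiated cells (9 genes) held 15.8 to 17.4 CPM at 0 h, 11.2 to 11.8 CPM at 5 h and 12.6 to 15.3 CPM at 48 h. Members of both lists went both ways at 48 h: 3 of the 7 stem cell markers were called higher and 1 lower. Of the 6 tested markers of differentiated cells, 2 were higher and 2 lower, beside 12.2% and 15.6% of all genes. The part of these markers in the result was not tested. The small fall at 2 h (log2 -0.35, adjusted p = 0.0485) lost its call in 8 of 15 alternatives: without CGR8 0 h replicate A, B or C or 2 h replicate A or C (adjusted p 0.0734 to 0.175), and with RLE factors (0.0572), voom (0.0507) or the compared groups alone (0.0827).

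Mycl, the third family member, fell at 2, 5 and 48 h in CGR8. The libraries held 8.99, 7.31 and 6.68 CPM at 2 h, 6.30, 7.99 and 6.92 CPM at 5 h and 6.45, 6.0 and 5.43 CPM at 48 h, all below the 0 h libraries. The falls were by 0.65, 0.76 and 1.01 on the log2 scale (edgeR BH-adjusted p = 0.00383, 0.000203 and 4.52e-05).

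Summed per kb, the make-up of the family in CGR8 shifted towards Mycn. Mycn was 62.8 ± 1.04% of the summed CPM per kb of Myc, Mycn and Mycl at 0 h (SD, n = 3), 71.4 ± 0.794% at 5 h and 88.7 ± 0.256% at 48 h. No library of 5 h or 48 h overlapped with 0 h. The family sum was 82.5 ± 2.51 CPM per kb at 0 h, 64.6 ± 4.49 at 5 h and 113 ± 21.5 at 48 h. In NIH/3T3 the sum, nearly all Myc, went from 113 ± 8.48 CPM per kb at 0 h to 232 ± 19.2 at 2 h and 90.4 ± 1.67 at 48 h.

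**Figure D3:**
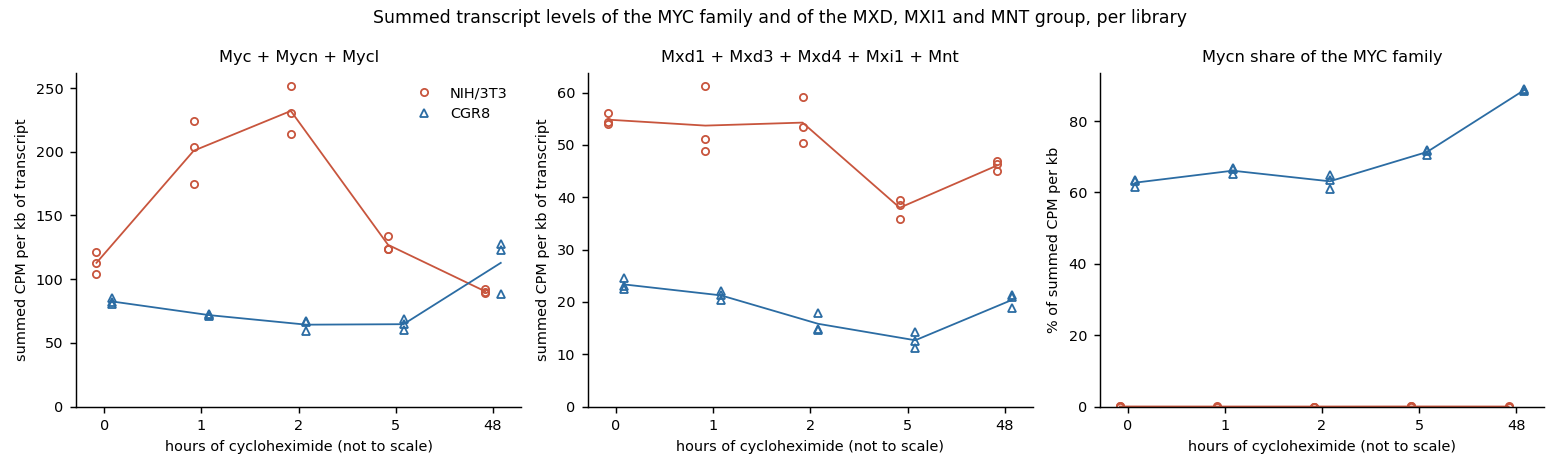
Summed CPM per kb of transcript of the MYC family (left) and of the antagonists Mxd1, Mxd3, Mxd4, Mxi1 and Mnt (middle), and the percentage of the family sum held by Mycn (right), per library by hours of CHX (not to scale), with lines through group means. In CGR8 the Mycn share goes from 62.8% to 88.7%, and the antagonist sum is lowest at 5 h in both lines.

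Max, the partner shared by all of these proteins, stayed within narrow bounds in NIH/3T3, at 48.3 to 55.8 CPM in all 15 libraries. No comparison with 0 h was called there, and the intervals of the log2 changes ran from -0.22 to 0.20 over the 4 times. In CGR8 the libraries held 86.0, 81.4 and 79.9 CPM at 0 h, 68.7, 61.5 and 57.0 at 2 h, 78.3, 71.2 and 80.0 at 5 h and 88.3, 104 and 103 at 48 h. Max had fallen at 2 h (log2 -0.40, SE 0.10, edgeR BH-adjusted p = 0.0116), without overlap of the libraries, and was not called at 5 h or 48 h. At 48 h all libraries lay above those of 0 h, and 6 of 15 alternatives called a rise. The 2 h call was lost without CGR8 0 h replicate A (adjusted p = 0.0551) or 2 h replicate C (adjusted p = 0.0625), and with the compared groups alone (adjusted p = 0.0718). An annotated gene on the same strand, Gm47218, overlaps Max, so its counts are uncertain to that extent.

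Among the antagonists, Mnt had the lowest log2 change of the tested genes of the network at 2 h and at 5 h, in both lines. MNT is widely expressed and is known to hold back MYC in dividing cells. In NIH/3T3 it stood at 45.4, 33.8 and 43.6 CPM at 0 h, 23.7, 24.2 and 25.9 CPM at 2 h, 13.7, 13.6 and 16.2 CPM at 5 h and 30, 29.5 and 30.3 CPM at 48 h. In CGR8 it stood at 57.7, 59.3 and 57.6 CPM at 0 h, 35.3, 31.2 and 21.6 CPM at 2 h, 14.8, 16.2 and 15.1 CPM at 5 h and 44.3, 45.8 and 49.7 CPM at 48 h. No library of 2 h, 5 h or 48 h overlapped with 0 h in either line. At 5 h Mnt had fallen 2.82-fold in NIH/3T3 (log2 -1.497, SE 0.15, edgeR BH-adjusted p = 1.35e-06) and 3.78-fold in CGR8 (log2 -1.92, SE 0.14, adjusted p = 2e-07). Of all genes tested, 1.36% in NIH/3T3 and 1.05% in CGR8 had a lower log2 change at 5 h than Mnt.

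The fall of Mnt was already called at 2 h in both lines (log2 -0.73 and -0.99, edgeR BH-adjusted p = 0.00173 and 0.000278). From 5 h to 48 h Mnt rose 2.06-fold in NIH/3T3 and 3.03-fold in CGR8. At 48 h it was still below 0 h in NIH/3T3 (log2 -0.45, adjusted p = 0.0162) and not called in CGR8 (log2 -0.32, adjusted p = 0.0908). The NIH/3T3 call at 48 h was lost without 0 h replicate A (log2 -0.38, adjusted p = 0.071) or C (log2 -0.40, adjusted p = 0.0595), and with library size alone (log2 -0.38, adjusted p = 0.0609). The difference between the lines in the 5 h change was -0.33, with an interval of -0.75 to 0.08, and was not called.

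Mxi1, an antagonist of the MXD family, fell at 5 h in both lines. It went from 44.2, 43.3 and 40.8 CPM at 0 h to 26.6, 25.6 and 27.1 CPM at 5 h in NIH/3T3. In CGR8 it went from 23.4, 29.5 and 22.9 CPM to 12.5, 12.9 and 12.7 CPM. Neither line had overlapping libraries. The falls were by 0.69 (SE 0.09, edgeR BH-adjusted p = 9.12e-06) and by 0.99 (SE 0.13, adjusted p = 1.73e-05) on the log2 scale. At 48 h Mxi1 stood at 22.7, 25.6 and 25.5 CPM in NIH/3T3 and at 19.9, 17.4 and 17.6 CPM in CGR8, below 0 h in both lines (log2 -0.80 and -0.47, adjusted p = 1.72e-06 and 0.0112). The CGR8 call at 48 h was lost without 0 h replicate B (log2 -0.34, adjusted p = 0.0799) or 48 h replicate B (log2 -0.43, adjusted p = 0.0507). The call at 2 h in CGR8 (log2 -0.45, adjusted p = 0.0215) was lost without 0 h replicate B or 2 h replicate B or C (adjusted p 0.0626 to 0.097). With the length trend described under Mga removed, the 2 h call was lost as well (log2 -0.24, adjusted p = 0.289), and likewise with the compared groups alone (adjusted p = 0.113). AC133451.2 and Gm10197 overlap Mxi1 on the other strand.

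Mxd4 fell at 5 h and was above its starting level at 48 h in both lines. In NIH/3T3 it held 26.5, 25.6 and 25.6 CPM at 0 h, 18.7, 14.2 and 15.5 CPM at 5 h and 52.0, 51.1 and 45.9 CPM at 48 h. At 5 h it had fallen by 0.68 (log2 -0.68, SE 0.14, edgeR BH-adjusted p = 0.00062), and at 48 h it was above 0 h (log2 0.94, SE 0.13, adjusted p = 2.46e-05). The 3 groups did not overlap, and from 5 h to 48 h Mxd4 rose 3.07-fold (log2 1.62, adjusted p = 5.67e-08). In CGR8 Mxd4 was near the limit of these depths, with 97 counts in the 3 libraries of 0 h, 29 at 5 h and 171 at 48 h. Its libraries held 1.38, 1.29 and 0.921 CPM at 0 h, 0.577, 0.245 and 0.428 CPM at 5 h and 1.65, 2.24 and 2.72 CPM at 48 h, again without overlap. It had fallen by 1.51 at 5 h (SE 0.30, adjusted p = 0.000691) and was above 0 h at 48 h (log2 0.86, SE 0.24, adjusted p = 0.0138). The CGR8 call at 48 h was lost without 0 h replicate C (log2 0.71, adjusted p = 0.0647) or 48 h replicate C (log2 0.69, adjusted p = 0.0824). Gm42846 overlaps Mxd4 on the other strand.

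Mxd1, an antagonist induced as cells differentiate, was low in both lines. In NIH/3T3 it held 4.0, 3.5 and 3.94 CPM at 0 h, 1.73, 2.00 and 1.77 CPM at 5 h and 5.30, 5.42 and 4.53 CPM at 48 h. At 5 h it had fallen by 1.06 on the log2 scale (SE 0.17, edgeR BH-adjusted p = 1e-04) and rose 2.78-fold from 5 h to 48 h. In CGR8 it held 3.53, 3.31 and 3.47 CPM at 0 h, 3.02, 2.45 and 3.03 CPM at 5 h and 5.39, 6.94 and 5.96 CPM at 48 h. There the 5 h value was not called (log2 -0.27, adjusted p = 0.245) and the 48 h libraries lay above all others (log2 0.83, adjusted p = 0.00296). In NIH/3T3 the rise at 48 h (log2 0.42, adjusted p = 0.0298) lost its call without 0 h replicate A, B or C or 48 h replicate A or B (adjusted p 0.0501 to 0.102), with no filter (0.0751) and with the length trend removed (0.115). The difference between the lines at 5 h was 0.87 (SE 0.26, adjusted p = 0.0248), against a median of 0.13 over all genes. It lost its call without NIH/3T3 0 h replicate A or C, NIH/3T3 5 h replicate A or C, or CGR8 5 h replicate A or B (log2 0.64 to 0.84, adjusted p 0.051 to 0.174), with library size alone (0.118) and with no filter (0.0932). Gm44292 overlaps Mxd1 on the same strand.

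Mxd3 held 37.2, 40.7 and 41.2 CPM at 0 h in NIH/3T3, and 25.6, 28.0 and 28.9 CPM at 48 h, where it had fallen by 0.53 on the log2 scale (SE 0.14, edgeR BH-adjusted p = 0.00517). At 5 h it held 34.6, 31.5 and 33.4 CPM, which was not called. In CGR8, where it held 6.26, 6.29 and 5.77 CPM at 0 h and 10.4, 5.89 and 7.93 CPM at 5 h, no comparison with 0 h was called. The lines differed in the 5 h change by 0.75 (SE 0.25, adjusted p = 0.0427), and this call was lost in 15 of 21 alternatives. Without CGR8 5 h replicate A it was 0.35 (adjusted p = 0.49), and without NIH/3T3 0 h replicate B or C, any of the NIH/3T3 5 h libraries or any of the CGR8 0 h libraries it was 0.70 to 0.78 (adjusted p 0.0516 to 0.0995). Prelid1 overlaps Mxd3 on the other strand.

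Mga has the longest transcript of the network, at 13931 bases. In NIH/3T3 it held 80.5, 102 and 66.9 CPM at 0 h and 145, 158 and 149 CPM at 48 h, without overlap. That rise was called (log2 0.86, SE 0.18, edgeR BH-adjusted p = 0.000885). In CGR8 it held 362, 256 and 379 CPM at 0 h, 136, 251 and 351 CPM at 5 h and 388, 378 and 482 CPM at 48 h, and no comparison with 0 h was called. The share of all counts in genes with transcripts of 6000 bases or more went the same way at 48 h in NIH/3T3 and at 5 h and 48 h in CGR8: it was 12.6 to 14.1% at 0 h and 17.5 to 18% at 48 h in NIH/3T3, and 12 to 14.8% at 0 h, 7.34 to 11.5% at 5 h and 14.1 to 16.1% at 48 h in CGR8. At 5 h in NIH/3T3 it went the other way, with a share of 11.6 to 12.8% while Mga held 100, 109 and 110 CPM (log2 0.36, adjusted p = 0.113). With a trend on transcript length removed from each library, a setting added after seeing the data, the NIH/3T3 change at 48 h was 0.14 and not called (adjusted p = 0.127), and that at 5 h was 0.50 and called (adjusted p = 2.78e-05). In the same setting Mnt still fell at 5 h (log2 -1.33 and -1.60), as did Mxi1 (log2 -0.51 and -0.63).

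**Figure D4:**
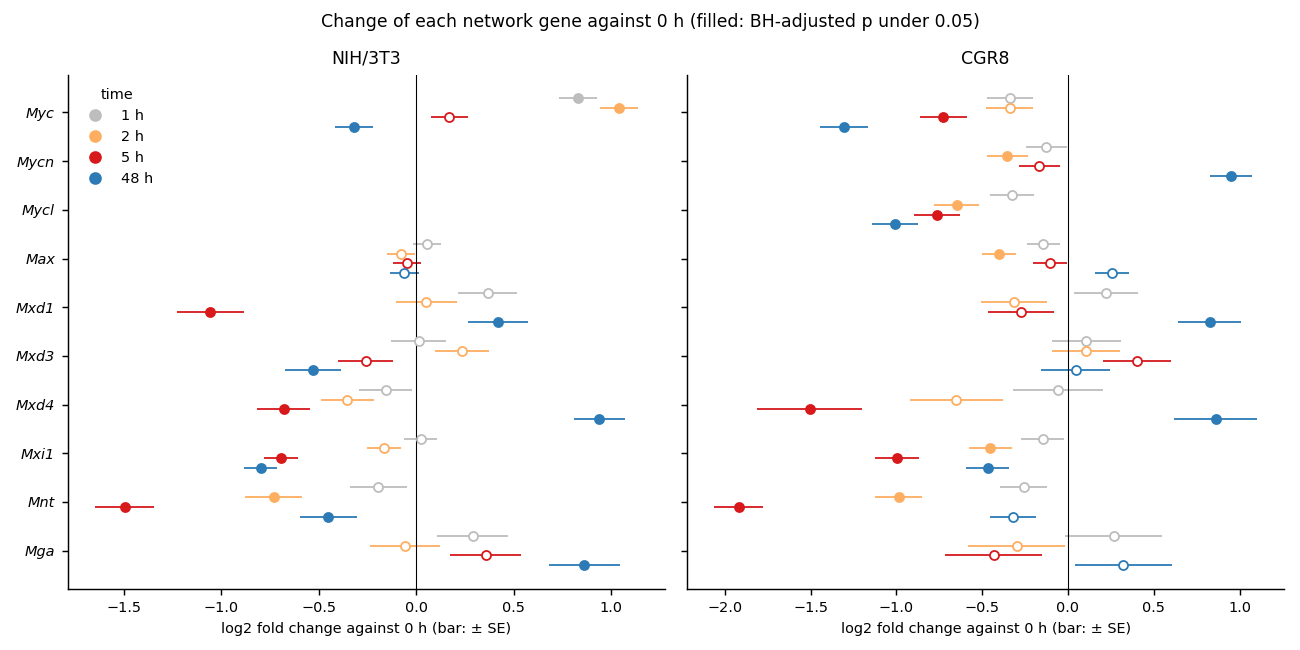
Log2 fold change against 0 h of each gene at 1, 2, 5 and 48 h in NIH/3T3 (left) and CGR8 (right), with SE bars and filled points where the BH-adjusted p is under 0.05. Mnt reaches -1.497 and -1.92 at 5 h, and Mxd4 changes side between 5 h and 48 h in both lines. Mycn and Mycl have no points in NIH/3T3, where they were not tested.

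Counted over the network, 2 of the 8 genes tested in NIH/3T3 were called at 2 h (Myc higher and Mnt lower), beside 16.1% of all genes called higher and 18.9% lower. At 5 h 4 of 8 were called, all lower (Mxd1, Mxd4, Mxi1 and Mnt), beside 27.1% of all genes called lower and 24.0% higher. At 48 h 3 were higher (Mxd1, Mxd4 and Mga) and 4 lower (Myc, Mxd3, Mxi1 and Mnt), beside 26.7% and 25.6%. The median log2 change of the 8 genes was -0.47 at 5 h, where that of all genes was -0.01. All 4 genes lower at 5 h are antagonists, but antagonists (Mxd1, Mxd3, Mxd4, Mxi1 and Mnt) make up most of the 8 genes tested. The remaining antagonist, Mxd3, was not called at 5 h. The count at 2 h was 4 without NIH/3T3 2 h replicate A, and that at 48 h was 4 without 0 h replicate C.

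In CGR8 at 1 h, 0 of 10 were called by edgeR (2 at an unadjusted p under 0.05, 0 by DESeq2 and 3 by limma's voom with sample weights), beside 0.144% of 15933 genes called higher and 0.126% lower. At 2 h 5 of 10 were called, all lower (Mycn, Mycl, Max, Mxi1 and Mnt), beside 11.0% of all genes called lower and 8.97% higher. At 5 h 5 of 10 were again lower (Myc, Mycl, Mxd4, Mxi1 and Mnt), beside 27.2% and 24.9%. At 48 h 3 were higher (Mycn, Mxd1 and Mxd4) and 3 lower (Myc, Mycl and Mxi1), beside 12.2% and 15.6%. The count at 2 h was 3 without 0 h replicate A or B and 2 without 2 h replicate C. The median of the 10 genes was -0.58 at 5 h, where that of all genes was -0.01.

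Between later times, 5 of 8 genes were called from 2 h to 5 h in NIH/3T3 (Myc, Mxd1, Mxd3, Mxi1 and Mnt, all lower), beside 23.1% of all genes. Mxd3 lost that call without NIH/3T3 2 h replicate A or 5 h replicate B or C (edgeR BH-adjusted p 0.0531 to 0.0783). From 5 h to 48 h 5 of 8 were called, of which Mxd1, Mxd4, Mnt and Mga rose and Myc fell, beside 65.6%. The Mga call was lost without NIH/3T3 5 h replicate A (adjusted p = 0.0683) or 48 h replicate B (adjusted p = 0.0607). In CGR8 3 of 10 were called from 2 h to 5 h (Max higher, Mxi1 and Mnt lower), beside 19.1%, and the Max call (adjusted p = 0.0469) was lost in 9 of 15 alternatives. The Mxi1 call was lost with the compared groups alone (adjusted p = 0.097). From 5 h to 48 h 8 of 10 were called in CGR8, of which Myc fell and Mycn, Max, Mxd1, Mxd4, Mxi1, Mnt and Mga rose, beside 57.5%. There the Mga change went from 0.76 to 0.46 without CGR8 5 h replicate A (adjusted p = 0.138), and its call was also lost without 5 h replicate B (adjusted p = 0.0635) or 48 h replicate C (adjusted p = 0.104). With the length trend removed, Mxi1 in CGR8 was -0.38 from 2 h to 5 h and 0.11 from 5 h to 48 h, neither called, and Mga between 5 h and 48 h was -0.37 in NIH/3T3 (0.51 without that step) and -0.045 in CGR8 (0.76).

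The ratio of the MYC family to the 5 antagonists, both summed per kb, put these courses in 1 measure. In NIH/3T3 it was 2.06 ± 0.116 at 0 h (SD, n = 3), 4.28 ± 0.0406 at 2 h, 3.34 ± 0.116 at 5 h and 1.96 ± 0.0618 at 48 h. The 2 h and 5 h libraries did not overlap with those of 0 h. In CGR8 the ratio began at 3.54 ± 0.0585. It stood at 4.09 ± 0.412 by 2 h, 5.19 ± 1.01 by 5 h and 5.49 ± 0.740 by 48 h. Every 2 h, 5 h and 48 h library there lay above every 0 h library. These are ratios of RNA levels, not of proteins. The antagonist sum differs in make-up between the lines. At 0 h its largest part was Mxd3 in NIH/3T3 (29.9 of 54.8 CPM per kb) and Mnt in CGR8 (12.7 of 23.3). Mxd3 has a short transcript (1.327 kb), and Prelid1 overlaps it on the other strand.

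The genes whose 8 log2 changes from 0 h (4 times in 2 lines) lay nearest to a member were sought among 8392 genes. For Mnt these were Rfx2 and Whrn, at a root mean square difference of 0.113 and 0.168, against a median of 0.987 over all genes. Rfx2, a transcription factor gene, had log2 changes at 5 h of -1.45 in NIH/3T3 and -1.92 in CGR8. For Mxd4 they were Ptpn14 and Tgfb1i1 (0.153 and 0.176, median 0.820), and for Mxd1 Inpp5d and Kif3c (0.219 and 0.240, median 0.629). For Myc the nearest were farther off, Trib1 and Nrg1 at 0.357 and 0.387 (median 0.816). The 8 changes share the 0 h libraries of their line, and the distances are descriptions.

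Genes known as direct MYC targets, 62 in all and mostly of ribosome assembly, nucleotide and polyamine synthesis, were measured beside the network. In NIH/3T3 14 were higher and 8 lower at 2 h, 19 higher and 16 lower at 5 h, and 2 higher and 52 lower at 48 h. The shares of 22.6% higher and 12.9% lower at 2 h stood beside 16.1% and 18.9% of all genes, and those of 30.6% and 25.8% at 5 h were near the 24.0% and 27.1% of all genes. The 48 h share of 83.9% lower stood beside 25.6% of all genes, and the median log2 change was -0.60 beside -0.01. In CGR8 20 were higher and 16 lower at 5 h, and 1 was higher and 6 lower at 48 h, with a median of -0.07. These shares were 32.3% and 25.8% at 5 h, near the 24.9% and 27.2% of all genes, and 1.61% and 9.68% at 48 h beside 12.2% and 15.6%. The difference between the lines at 48 h was called for 38 of 62 targets (61.3%), all with the lower change in NIH/3T3 (38 of 38), beside 21.9% of all genes, and its median was 0.55 beside -0.03. Over 15 alternatives 47 to 56 targets were lower in NIH/3T3, and over 21 alternatives 30 to 50 had the lower change there. In CGR8 3 were lower without 0 h replicate B or 48 h replicate A, and 2 without 48 h replicate C, and over 15 alternatives 1 to 11 were higher. In NIH/3T3 at 48 h the summed fibroblast markers had gone from 6559 to 7110 CPM at 0 h to 10174 to 10537 CPM, and their part in the result was not tested.

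The targets named for 5 h are the largest called rise and the largest called fall in each line, so they go both ways by choice. Nop56, a core protein of box C/D snoRNPs, rose in both lines, from 590 ± 18.9 to 1123 ± 31.8 CPM in NIH/3T3 (log2 0.93, edgeR BH-adjusted p = 1.24e-05) and from 521 ± 67.6 to 1209 ± 179 CPM in CGR8 (log2 1.22, adjusted p = 2.77e-05). Hk2, a hexokinase, fell in NIH/3T3 from 75.6 ± 6.29 to 29.8 ± 3.19 CPM (log2 -1.34, adjusted p = 3.2e-07). Cad, the enzyme that starts pyrimidine synthesis, fell in CGR8 from 591 ± 11.6 to 318 ± 50.5 CPM (log2 -0.90, adjusted p = 6.22e-05). At 48 h in NIH/3T3, chosen after their values were seen, Slc29a2, a nucleoside transporter, had a log2 change of -1.80 (adjusted p = 3.16e-08) and Odc1, the first enzyme of polyamine synthesis, of -1.32 (adjusted p = 3.79e-08). In CGR8 at 48 h Odc1 was not called (log2 -0.16, adjusted p = 0.411).

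Of 12 genes known to be repressed by MYC, 9 were tested in NIH/3T3. There 6 were higher and 2 lower at 5 h, and 7 higher and 1 lower at 48 h, with a median log2 change at 48 h of 0.62 beside -0.01 for all genes. In CGR8 12 were tested, and 3 were higher and 2 lower at 5 h, and 1 higher and 1 lower at 48 h. In NIH/3T3 66.7% were higher at 5 h beside 24.0% of all genes, and 77.8% at 48 h beside 26.7%, while the shares lower were 22.2% and 11.1% beside 27.1% and 25.6%. In CGR8 25.0% higher at 5 h was the share of all genes (24.9%), and 16.7% were lower beside 27.2%. The CGR8 shares at 48 h were 8.33% each way, beside 12.2% and 15.6%. Thbs1, which encodes an inhibitor of vessel growth, rose in NIH/3T3 at 5 h from 149 ± 8.40 to 343 ± 30.8 CPM (log2 1.20, edgeR BH-adjusted p = 4.52e-05). Cdkn1a, the gene of the cell cycle inhibitor p21, fell there from 199 ± 12.4 to 106 ± 2.52 CPM (log2 -0.91, adjusted p = 3.17e-07). In CGR8 Gadd45a rose (log2 0.78, adjusted p = 0.00016) and Ndrg1 fell (log2 -1.55, adjusted p = 1.23e-06).

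Genes that act on MYC protein stability, 16 in all, were measured in both lines. The list was not split by whether a gene raises or lowers that stability, so its counts give no direction for MYC. They were not recounted with the length trend removed. In CGR8 7 were lower and 2 higher at 2 h, 8 lower and 2 higher at 5 h, and 3 higher at 48 h, with a median at 5 h of -0.34 beside -0.01 for all genes. In NIH/3T3 6 were lower and 1 higher at 2 h, and 4 lower and 5 higher at 5 h. The shares lower in CGR8 were 43.8% at 2 h and 50% at 5 h, beside 11.0% and 27.2% of all genes, and the shares higher were 12.5% at both times and 18.8% at 48 h, beside 8.97%, 24.9% and 12.2%. In NIH/3T3 37.5% were lower and 6.25% higher at 2 h, beside 18.9% and 16.1%, and 25.0% and 31.2% at 5 h, beside 27.1% and 24.0%. Gsk3b, the kinase that marks MYC for degradation, fell in CGR8 at 5 h from 72.5 ± 2.34 to 36.7 ± 9.16 CPM (log2 -0.98, edgeR BH-adjusted p = 0.000158). Ppp2r5a, a regulatory subunit of the phosphatase PP2A, fell in NIH/3T3 from 68.6 ± 1.03 to 38.3 ± 0.998 CPM (log2 -0.84, adjusted p = 2.65e-07).

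**Figure D5:**
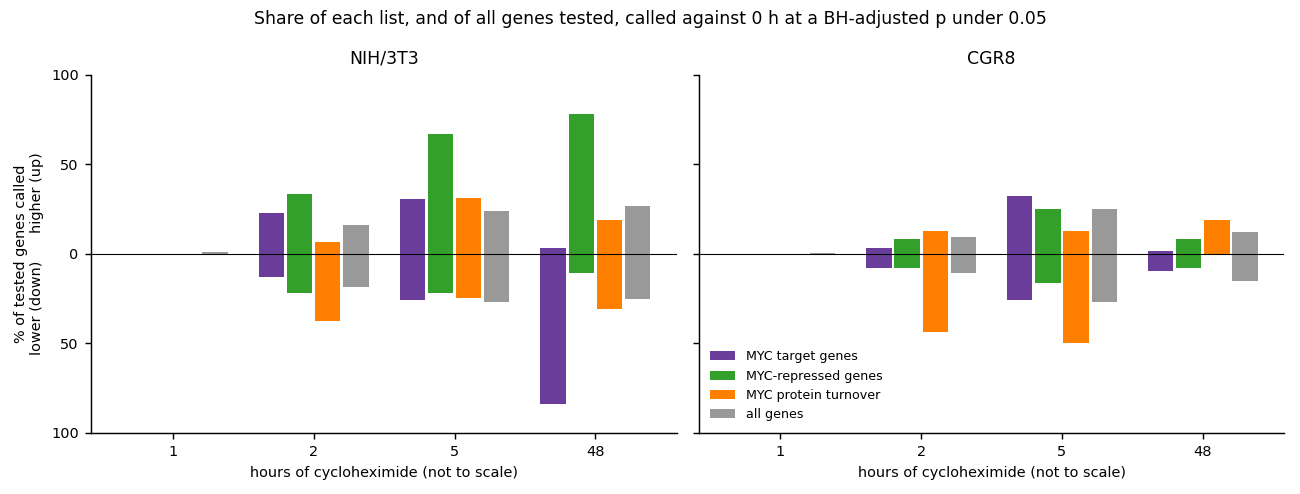
Percentage of the tested genes of 3 lists, and of all genes, called higher (bars up) or lower (bars down) against 0 h at each time, in NIH/3T3 (left) and CGR8 (right). At 48 h 83.9% of 62 MYC targets are lower in NIH/3T3, where 25.6% of all genes are.

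Cofactors and corepressors gave mixed counts. Of 15 MYC cofactors, 1 was higher and 3 lower in NIH/3T3 at 5 h, and 1 higher and 6 lower in CGR8. The shares lower were 20% and 40.0%, beside 27.1% and 27.2% of all genes, and the share higher was 6.67% in both lines, beside 24.0% and 24.9%. Kat2a, the acetyltransferase GCN5, fell in NIH/3T3 (log2 -0.88, edgeR BH-adjusted p = 3.82e-05), and Kat5 rose there (log2 0.55, adjusted p = 0.000512). Actl6a rose in CGR8 (log2 0.44, adjusted p = 0.00325).

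Of 10 tested corepressor genes used by the MXD proteins, 2 were higher and 2 lower in NIH/3T3 at 5 h, and 5 higher and 2 lower in CGR8. In NIH/3T3 20% each way was near the shares of all genes (24.0% and 27.1%), and in CGR8 50% were higher and 20% lower, beside 24.9% and 27.2%. Sap130, a SIN3 complex subunit, fell in both lines (log2 -0.92 and -0.60, edgeR BH-adjusted p = 1.5e-05 and 0.000452). Hdac1 rose in CGR8 from 321 ± 10.5 to 504 ± 35.2 CPM (log2 0.65, adjusted p = 0.000117), and Arid4b rose in NIH/3T3 (log2 0.63, adjusted p = 0.0431).

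Of the partners of MGA in PRC1.6, 3 of 10 were called in CGR8 at 5 h: 1 was higher (Cbx1, log2 0.27, edgeR BH-adjusted p = 0.0198) and 2 were lower, the larger fall being that of Pcgf6 (log2 -0.38, adjusted p = 0.00474). In NIH/3T3 2 of 9 were higher and 2 lower at 5 h. The shares of 22.2% each way in NIH/3T3 were near those of all genes (24.0% and 27.1%), and those in CGR8 were 10.0% higher and 20% lower, beside 24.9% and 27.2%. In NIH/3T3 at 5 h Rnf2, the E3 ligase of the complex, rose from 70.4 ± 8.41 to 124 ± 2.65 CPM (log2 0.82, adjusted p = 2.52e-06), and Tfdp1 fell (log2 -0.45, adjusted p = 0.000253).

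MLX and its Mondo partners form a related network that senses glucose-derived signals. Mlx rose at 5 h in both lines (log2 0.37 and 0.46, edgeR BH-adjusted p = 0.00567 and 0.00402). Mlxip, which encodes MondoA, fell from 62.4 ± 4.57 to 37.0 ± 2.02 CPM in NIH/3T3 and from 38.4 ± 1.61 to 21 ± 2.99 CPM in CGR8 (log2 -0.75 and -0.87, adjusted p = 0.000521 and 5.25e-05). Mlxipl was tested in CGR8 alone, where it was below 1 CPM at 0 h and 5 h.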

How the data were processed

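RNA sequencing libraries of NIH/3T3 and CGR8 cells (30 in 10 groups of 3) were analysed from the raw read counts per gene that the authors deposited, 1 column per library. The submitters' processing notes name STAR, DESeq2 and GRCm39. The labels' protocols name a stranded mRNA ligation kit. The counting tool, its use of strand and the annotation release are not given in the sources used here. If strand was ignored, counts of overlapping genes cannot be told apart. Without the version suffix 51880 of 57186 identifiers (90.7%) had a symbol. No column was excluded (0 of 30).

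Counts were fitted in R 4.3.3 with edgeR 4.0.16: filterByExpr (minimum count 10, minimum total 15), TMM scaling and quasi-likelihood F tests with BH adjustment over all genes. Each line was fitted on its own 15 libraries, and differences between the lines as interactions over all 30. SEs are the log2 fold change divided by the root of F. Intervals are 1.96 SE to each side, a normal approximation (nominally 95%) that is narrower than the F tests imply. For Mga in NIH/3T3 at 5 h, the interval began at 0.00023 though the unadjusted p of the edgeR F test was 0.067. CPM per kb uses the longest coding transcript of a GRCm38 annotation, which differs in build from the deposited counts. No 2 libraries of a group agreed within sampling noise (lowest chi-square per degree of freedom 1.75), and the tests were checked on simulated counts. The alternatives were RLE factors, library size alone, DESeq2 1.42.0, no filter, a mean of at least 5 CPM, a replicate block, limma 3.58.1 voom with sample weights, the compared groups alone and each library left out. Removal of a transcript length trend was added after seeing the data.

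The 10 genes and the lists were chosen with earlier results of these data known. In a list, the largest called rise and fall at 5 h with at least 10 CPM are named per line, and for a member the 2 genes nearest to it in their log2 changes. Some genes that this rule names are not reported here. Precision is limited by counting for genes of few counts, and intervals on counts cover counting error only.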

Additional observations from a re-analysis of the deposited data

Results flagged for a closer look

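In 6 cases the change of a network gene from 0 h differed between the lines by a direct test of the difference (edgeR interaction, BH-adjusted over 17549 genes). For Myc the log2 difference, CGR8 minus NIH/3T3, was -1.15 at 1 h (adjusted p = 0.000362), -1.33 at 2 h (adjusted p = 4.6e-06), -0.81 at 5 h (adjusted p = 0.00131) and -1.004 at 48 h (adjusted p = 5.87e-05). In NIH/3T3 all 3 libraries of 1 h and of 2 h lay above those of 0 h, and in CGR8 all 3 lay below, though neither CGR8 difference was called. The Myc difference was called at each of the 4 times in all 21 alternatives, with values between -1.48 and -0.75.

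Mxd1 differed at 5 h by 0.87 (adjusted p = 0.0248) and Mxd3 by 0.75 (adjusted p = 0.0427). Mxd1 kept its call in 12 of 20 alternatives and Mxd3 in 6 of 21. At 5 h the libraries of Mxd1 lay below those of 0 h in both lines, with log2 changes of -1.06 in NIH/3T3 and -0.27 in CGR8, of which the second was not called.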

How the results depend on the processing

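Of 2582 member values under alternatives, 2420 kept their side of the threshold, 77 lost and 82 gained a call, and 3 turned. The sign changed in 88 of the 2582, which include the 3 that turned. The rest of the 88 were called neither as reported nor under the alternative, and are among the 2420. The 3 that turned are Mga with the transcript length trend removed: 0.32 in NIH/3T3 at 2 h (-0.06 as reported), -0.37 from 5 h to 48 h in NIH/3T3 (0.51) and -0.045 from 5 h to 48 h in CGR8 (0.76). The alternative was built to take out length, and the cause of the length trend was not tested.

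The number of network genes called moved under these settings, and the cause was not tested. With voom and sample weights it was 3 in NIH/3T3 at 1 h (1 as reported), 5 at 2 h (2), 7 at 5 h (4), 3 in CGR8 at 1 h (0) and 6 for the line difference at 48 h (1), among them Mycn, which passed the filter through CGR8 alone and is not read. With the compared groups alone it was 7 in NIH/3T3 at 5 h (4), 2 in CGR8 at 2 h (5), 1 from 2 h to 5 h in CGR8 (3) and 3 for the line difference at 48 h (1). With library size alone it was 4 in NIH/3T3 at 2 h (2) and 1 for the line difference at 5 h (3). A mean of at least 5 CPM gave 1 at 5 h (3) and 2 at 48 h (1), DESeq2 and no filter each gave 2 at 48 h, and the length setting 2 at 2 h (1), all for the line difference.

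With each library left out in turn, the counts ranged in NIH/3T3 from 2 to 4 at 2 h and from 4 to 7 at 48 h (4 without 0 h replicate C). In CGR8 they ranged from 2 to 5 at 2 h (2 without 2 h replicate C). For the line differences they ranged from 1 to 2 at 2 h, 1 to 4 at 5 h and 1 to 3 at 48 h.

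The labels do not say what replicates of the same letter share. Of 24 pairs of libraries with the same letter, 7 had deviations from their group means correlated above 0.1 (range -0.521 to 0.371). Pairs of unlike letters were not compared, so these values do not settle whether a letter pairs libraries. With the letter as a replicate block, 152 of 158 member values kept their call, 2 lost it (Max from 2 h to 5 h in CGR8, 0.30, and Mxd3 for the line difference at 5 h, 0.74) and 4 gained one.

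Counts over all genes moved by over 1.5 times as follows. At 1 h 102 genes in NIH/3T3 became 27 to 2881 and 43 in CGR8 became 15 to 1044. At 2 h 4878 became 3050 to 7827 and 3174 became 965 to 4609. At 48 h 4429 in CGR8 became up to 7063. From 2 h to 5 h 3220 in NIH/3T3 became 2064 to 5326 and 3051 in CGR8 became as few as 602. The line differences of 28, 355, 2329 and 3849 genes became 15 to 259, 182 to 709, up to 6373 and up to 7622, and 13883 genes at 0 h became as few as 8601. Library size alone moved the share of calls that were higher from 53.5 to 68.4% in CGR8 at 1 h and from 41.3 to 25.2% there from 2 h to 5 h. For the line difference RLE moved it from 42.8 to 31.8% at 2 h and from 61.6 to 45.9% at 5 h, and library size alone to 31.5% at 5 h. Depth limits Mxd4 in CGR8, with 29 counts in 3 libraries at 5 h, and Mycn and Mycl in NIH/3T3, with 11 and 2 counts in 15 libraries.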

Other observations

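The E-box letters CACGTG stood in the start-site windows (300 bases, RefSeq GRCm38.p6) of 16 of the 55 MYC target genes that have a window, where 8.09% of all genes with a window hold them. CACGCG, read on both strands, stood in 22 of the 55, where 10.5% of all genes hold it. Of the 8 MYC-repressed genes with a window, 0 held CACGTG and 2 held CACGCG. These are matches of letters, with no test.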
